A study of Danio rerio with 12 samples.

Results

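SB431542 blocks the receptors ALK4, ALK5 and ALK7, and its effect on wounded tails of zebrafish (Danio rerio) larvae was read from 6 of the 12 libraries of the series, defined by their labels. The SB431542 cut tails (replicates 2, 3 and 4) came from larvae that lost about 200 µm of tail at the pigment gap at 72 hours post fertilization (hpf) and were then held in 50 µM SB431542 for 18 hours. The DMSO cut tails (replicates 1, 3 and 4) were operated on in the same way and held in 0.1% DMSO, the vehicle. At 90 hpf a further 200 µm was taken from each tail, so the RNA comes from the tissue next to the wound, and 100 tails were pooled for each library. All larvae were wild type per the labels, and no allele differs between the groups. The other 6 libraries, of uncut tails of the same age in SB431542 (replicates 2, 3 and 4) or in DMSO (replicates 1, 2 and 4), are set beside the cut ones where they help to read them. The labels do not say that the replicates came from separate clutches, and a p-value here speaks only of how far these pools of tails vary, part of which may be technical.

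Ligands of the TGF-β, activin and nodal group bind a type II receptor, which recruits and phosphorylates a type I receptor such as ALK4, ALK5 or ALK7. The type I receptor in turn phosphorylates the proteins Smad2 and Smad3, which enter the nucleus with Smad4 and change transcription. In fin and tail regeneration of fish this pathway is known for its part in wound closure, in the deposition of wound matrix and in the growth of the blastema, the pool of dividing cells from which the lost part is rebuilt. SB431542 is a reversible inhibitor of receptor kinase activity, so no gene is deleted and no transcript serves as a direct check of the labels.

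The library kit reads transcripts at their 3′ end. Levels are given as CPM, counts scaled to a common library total, which for 3′ tags do not depend on transcript length. Total counts ran from 7368986 to 11264610 in the 6 cut libraries. The first principal component of log2 CPM, with 45.2% of the variance, held the SB431542 cut libraries between -26.9 and -8.67 and the DMSO cut libraries between 9.84 and 35.4, and SB431542 replicate 4 lay nearest to the DMSO libraries. Markers of skeletal muscle summed to between 152541 and 189212 CPM in SB431542 cut libraries, against 143462 to 205286 CPM in DMSO cut libraries, and markers of superficial epidermis to between 17449 and 21127 CPM against 14484 to 17634 CPM. Of markers of tissues the tail tip should not hold, 1 of 26 for eye and lens, 2 of 14 for heart, 8 of 23 for pancreas and intestine and 7 of 22 for liver passed the count filter. The first 3 lists summed to at most 60.8 CPM in any cut library. The liver list summed to between 2185 and 2777 CPM in SB431542 cut libraries and between 1629 and 1851 CPM in DMSO cut libraries, most of it from the retinol carrier gene RBP4 (ENSDARG00000101199), which averaged 2087 CPM with SB431542 and 1372 CPM with DMSO, and its part in other results was not tested. Of the uncut libraries, SB431542 replicate 4 moved the joint fits given below most, and counts of calls and some named values are also given without it.

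SB431542 changed more genes upward than downward in cut tails. Of 13415 genes tested with the quasi-likelihood test of edgeR on the 6 libraries, 414 were called at an adjusted p under 0.05, or 3.09%. They comprise 292 genes that were higher with SB431542 (2.18%), 194 of them by at least 2-fold (1.45%), and 122 that were lower (0.909%), 45 of them by at least 2-fold (0.335%). The median log2 fold change in size was 1.16 among the higher genes and 0.91 among the lower ones, while the median over all genes was -0.008 and 49.3% of all genes had a positive value. For all 414 the 3 SB431542 libraries lay to 1 side of the 3 DMSO libraries, which held for 24.8% of all genes tested.

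How many genes are called rests on single libraries. Leaving out SB431542 replicate 3 left 47 higher and 15 lower, leaving out DMSO replicate 3 left 93 and 30, DMSO replicate 4 128 and 37, and SB431542 replicate 2 187 and 53, whereas 367 and 221 were called without SB431542 replicate 4. 41 higher and 14 lower genes kept their call and direction in all 6 of these fits. A fit of all 12 libraries, in which cut and uncut tails share 1 estimate of the spread, called 5 higher and 7 lower, all 12 of them among the 414. The 5 were UCP2, NR4A1, RGCC, tob1b and zgc:92606, and the 7 were snorc, loxl5b, krt97, PCOLCE2, SP6, mgp and ENSDARG00000022615. The same joint fit with uncut SB431542 replicate 4 left out called 206 higher and 107 lower, of which 287 were among the 414. Of these, RGCC, tob1b, zgc:92606, mgp and ENSDARG00000022615 are named after their values were seen.

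**Figure D1:**
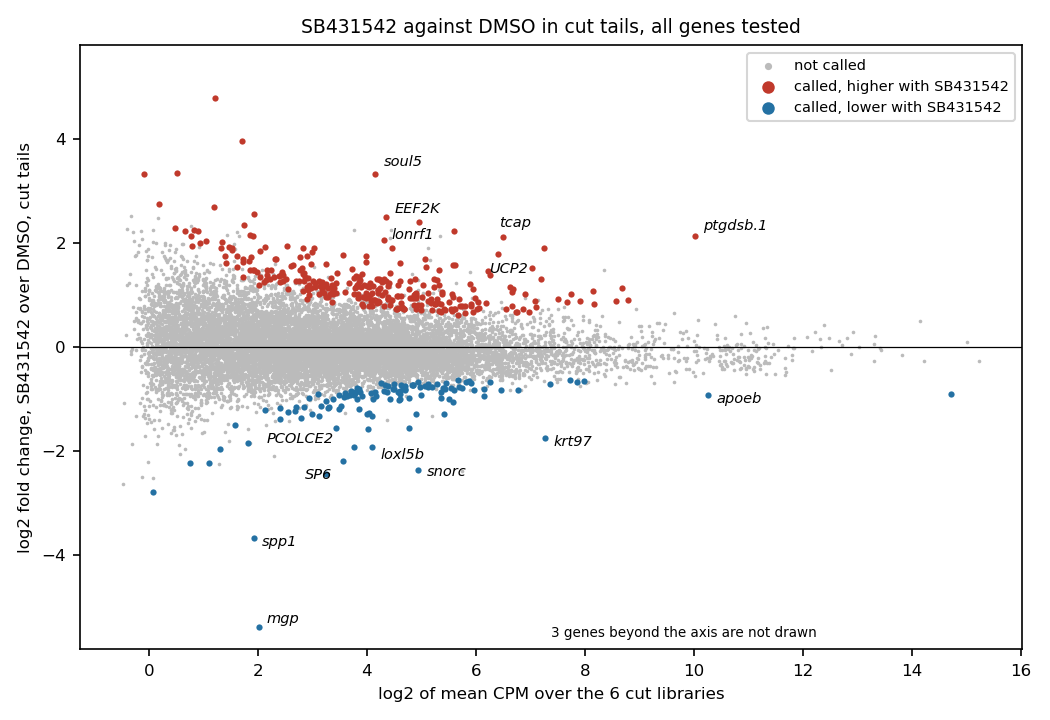
Each point is 1 of the genes tested in cut tails, with its mean level over the 6 cut libraries on the horizontal axis (log2 CPM) and its log2 fold change of SB431542 over DMSO on the vertical axis. The 292 genes called higher (red) include soul5, lonrf1 and the abundant ptgdsb.1, the 122 called lower (blue) include snorc, SP6, krt97 and apoeb, and 3 genes beyond the axis are not drawn.

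The genes by which TGF-β signalling is usually followed did not fall as a group. Of 24 tested genes on a list of TGF-β and activin targets and feedback genes, 1 was higher and 2 were lower, and their median log2 fold change was -0.01, with 12 positive and 12 negative. The share called was 12.5%, against 3.09% over all genes. The 2 lower ones encode restraints on the pathway. FST (ENSDARG00000052846), whose product follistatin traps activin outside the cell, had 1.45, 1.24 and 1.88 CPM in SB431542 cut tails, against 7.23, 4.38 and 4.66 CPM in DMSO cut tails (log2 fold change -1.84 ± 0.36 SE, adjusted p = 0.0115). LDLRAD4 (ENSDARG00000070555), which encodes a membrane protein that hinders Smad activation, had 0.726, 0.571 and 0.417 CPM with SB431542 against 3, 2.66 and 2.38 CPM with DMSO (log2 fold change -2.22 ± 0.49 SE, adjusted p = 0.0205). Both were low genes, and in both every SB431542 library lay below every DMSO library. POSTN (ENSDARG00000043806), the gene of the matrix protein periostin and a known TGF-β target in mammals, went the other way, with 5.08, 7.61 and 10.3 CPM in SB431542 cut tails against 2.76, 2.09 and 2.19 CPM in DMSO cut tails (log2 fold change 1.69 ± 0.32 SE, adjusted p = 0.00995). Leaving out SB431542 replicate 4 gave 4 lower genes on this list and leaving out SB431542 replicate 3 gave none in either direction. The call of FST ended without SB431542 replicate 3 (adjusted p = 0.0956). That of LDLRAD4 ended without SB431542 replicate 3 or DMSO replicates 1, 3 or 4 (adjusted p between 0.0532 and 0.114). That of POSTN ended without SB431542 replicate 3 or DMSO replicate 3 (adjusted p between 0.0515 and 0.0633).

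Genes often taken as first readouts of Smad2 and Smad3 could be read only in part. skilb and PMEPA1 had 0 counts in all 6 cut libraries, so they say nothing here. SMAD7 (ENSDARG00000016858), the inhibitory Smad, had 9.08, 9.99 and 10.9 CPM with SB431542 and 9.18, 9.61 and 6.86 CPM with DMSO (log2 fold change 0.22 ± 0.23 SE, adjusted p = 0.637), and the 2 groups overlapped. TGFBI (ENSDARG00000071586), a secreted adhesion protein named for its induction by TGF-β, had 309, 283 and 309 CPM with SB431542 against 336, 357 and 423 CPM with DMSO, lower in every SB431542 library (log2 fold change -0.32 ± 0.16 SE, adjusted p = 0.298) but not called. CCN2 (ENSDARG00000042934), the connective tissue growth factor gene, had 12.5, 13 and 14.6 CPM with SB431542 against 16.3, 23.9 and 6.49 CPM with DMSO (adjusted p = 0.781), and its paralogue ccn2b a log2 fold change of -0.53 ± 0.41 (SE). The feedback genes BAMBI (ENSDARG00000055381) and TGIF1 and the matrix gene THBS1 (ENSDARG00000010785), whose product releases latent TGF-β, had log2 fold changes of -0.68, -0.73 and -0.63 with adjusted p-values of 0.0593, 0.0605 and 0.0605, none of them called. These 3 were chosen after their values were seen.

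The ligands, receptors and Smads themselves showed no called change, with 0 of 11 tested genes called and a median log2 fold change of 0.02. INHBA (ENSDARG00000012671), a gene of the activin A subunit, had 16.6, 13.2 and 14.5 CPM in SB431542 cut tails against 21.4, 19.4 and 28.2 CPM in DMSO cut tails, below it in every library (log2 fold change -0.65 ± 0.20 SE, adjusted p = 0.0901). Of the alternatives run, it passed the threshold with no count filter alone (adjusted p = 0.0479). The second INHBA gene, ENSDARG00000024759, had few counts and groups that overlapped (log2 fold change 0.2 ± 0.49 SE, adjusted p = 0.858). tgfb1a (ENSDARG00000041502), the TGF-β1 gene, had 33.9, 41.5 and 33.5 CPM with SB431542 and 42.4, 39.1 and 37.6 CPM with DMSO (log2 fold change -0.13 ± 0.17 SE, adjusted p = 0.705). The BMP pathway, which signals through other type I receptors, had 0 of 26 tested ligand, Smad and target genes called and a median of 0.06.

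The list of collagen processing genes had lower calls and none higher, and no interstitial collagen was called. Of 19 tested genes of collagen processing and cross-linking, 0 were higher and 2 were lower, while the 14 tested interstitial and fibril-associated collagens had a median log2 fold change of -0.02. The share called of the 19 was 10.5%, against 3.09% over all genes. PCOLCE2 (ENSDARG00000055575), which encodes an enhancer of the proteinase that trims procollagen, had 7.02, 4 and 6.16 CPM in SB431542 cut tails, against 20.5, 17.5 and 25.8 CPM in DMSO cut tails (log2 fold change -1.91 ± 0.25 SE, adjusted p = 0.000433). SERPINH1 (ENSDARG00000075954), the collagen chaperone Hsp47, had 16.6, 16.8 and 21.8 CPM with SB431542 against 37.8, 38.1 and 32.2 CPM with DMSO (log2 fold change -0.98 ± 0.18 SE, adjusted p = 0.00861). loxl5b (ENSDARG00000076904), a lysyl oxidase family gene whose enzymes cross-link collagen and elastin and which was listed with the notochord and cartilage genes, had 7.38, 7.8 and 6.37 CPM with SB431542 against 18.1, 21 and 42 CPM with DMSO (log2 fold change -1.91 ± 0.29 SE, adjusted p = 0.0033). In each of the 3 genes the groups were fully apart, and for loxl5b the DMSO libraries spread most, replicate 4 holding the highest value. The call of SERPINH1 ended without SB431542 replicate 3 or DMSO replicate 3 (adjusted p between 0.0515 and 0.0935), while the other 2 passed in all 6 leave-one-out fits. A collagen chaperone gene on another list, FKBP10 (ENSDARG00000099183), was called higher (log2 fold change 2.24 ± 0.54 SE, adjusted p = 0.0307). It had few counts and kept its call in 2 of the 6 fits.

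The largest decrease among genes averaging at least 5 CPM and bearing a proper symbol was in snorc (ENSDARG00000092383), which encodes a proteoglycan of cartilage. It had 8.96, 11.2 and 9.91 CPM in SB431542 cut tails and 47.1, 34 and 72.9 CPM in DMSO cut tails, a level 5.12-fold lower (log2 fold change -2.36 ± 0.25 SE, adjusted p = 0.000116). Uncut tails held 6.96, 7.55 and 11.1 CPM with SB431542 and 17.5, 16.3 and 7.61 CPM with DMSO, so the 3 DMSO cut libraries stood above all 9 others. THBS3 (ENSDARG00000077641), a thrombospondin gene of skeletal tissues, had 6.17, 8.28 and 14.3 CPM with SB431542 against 22.3, 22.5 and 24.3 CPM with DMSO (log2 fold change -1.27 ± 0.25 SE, adjusted p = 0.0115). It was the 1 called gene of 23 tested fibronectin, tenascin and other matricellular genes (4.35%, against 3.09% over all genes), whose median was -0.14. C1QTNF5 (ENSDARG00000056134), which encodes a secreted protein with a collagen domain, had 7.62, 8.66 and 13 CPM with SB431542 against 26.7, 23.3 and 23 CPM with DMSO (log2 fold change -1.32 ± 0.22 SE, adjusted p = 0.00369). angptl7 (ENSDARG00000027582), a secreted angiopoietin-like gene, had 19.4, 24.8 and 29.9 CPM with SB431542 against 59.4, 57.6 and 64.2 CPM with DMSO (log2 fold change -1.29 ± 0.18 SE, adjusted p = 0.000888). The call of THBS3 ended without SB431542 replicate 3 (adjusted p = 0.107). That of C1QTNF5 ended without SB431542 replicate 3 (adjusted p = 0.0515).

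3 further genes of secreted proteins among the lower calls were chosen after their values were seen, and the first 2, known from mineralizing tissue, were low in level. spp1 (ENSDARG00000044276), the osteopontin gene, had 1.09, 0.0952 and 0.522 CPM in SB431542 cut tails against 6.82, 4.85 and 9.05 CPM in DMSO cut tails (log2 fold change -3.66 ± 0.51 SE, adjusted p = 0.00083). mgp (ENSDARG00000086189), the gene of matrix Gla protein, which restrains calcification, had 0.121, 0.0952 and 0.313 CPM with SB431542 against 3.25, 3.81 and 16.4 CPM with DMSO (adjusted p = 0.0171), and 1 library, DMSO replicate 4, held most of its counts. FSTL1 (ENSDARG00000015559), a secreted follistatin-like gene, had 34.6, 27.8 and 28.9 CPM with SB431542 against 53.7, 66.8 and 61.7 CPM with DMSO (log2 fold change -1 ± 0.17 SE, adjusted p = 0.00553). All 3 had every SB431542 library below every DMSO library. The call of mgp ended without SB431542 replicates 2, 3 or 4 (adjusted p between 0.0732 and 0.134). That of FSTL1 ended without SB431542 replicate 3 (adjusted p = 0.0731).

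Besides the lower loxl5b, 2 genes of the cartilage and notochord list were higher with SB431542, of 24 tested (1 lower, median 0.08). The share called of the 24 was 12.5%, against 3.09% over all genes. COL2A1 (ENSDARG00000069093), a type II collagen gene of notochord sheath and cartilage, had 351, 395 and 354 CPM in SB431542 cut tails against 262, 189 and 168 CPM in DMSO cut tails (log2 fold change 0.83 ± 0.18 SE, adjusted p = 0.0212), and hapln1a (ENSDARG00000089769), which links hyaluronan to proteoglycan, had 30.9, 44.5 and 36.6 CPM with SB431542 against 21.3, 21.4 and 15.3 CPM with DMSO (log2 fold change 0.95 ± 0.20 SE, adjusted p = 0.0158). Uncut tails of both treatments held more COL2A1 than the DMSO cut tails, at 1053, 623 and 1264 CPM with SB431542 and 1082, 488 and 351 CPM with DMSO. The call of COL2A1 ended without SB431542 replicates 2 or 3 or DMSO replicates 3 or 4 (adjusted p between 0.0513 and 0.124). That of hapln1a ended without SB431542 replicate 3 or DMSO replicates 3 or 4 (adjusted p between 0.0506 and 0.124).

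Fibronectin, a main component of the provisional wound matrix, did not pass the test. FN1 (ENSDARG00000006526) had 347, 262 and 350 CPM in SB431542 cut tails and 715, 451 and 262 CPM in DMSO cut tails (log2 fold change -0.58 ± 0.30 SE, adjusted p = 0.324). DMSO replicates 1 and 3 lay above all SB431542 values, while DMSO replicate 4 lay level with the lowest of them. The second gene of that symbol, ENSDARG00000019815, had a log2 fold change of -0.36 ± 0.26 (SE). FN1 ENSDARG00000006526 passed the threshold without DMSO replicate 4 (log2 fold change -0.87, adjusted p = 0.0422) and with no count filter (adjusted p = 0.0371).

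2 matrix metalloproteinase genes were higher with SB431542. Of 22 tested proteases and inhibitors, 2 were higher, 0 were lower and the median was -0.02. The share called was 9.09%, against 3.09% over all genes. MMP9 (ENSDARG00000042816), the gelatinase that neutrophils, macrophages and wound epithelium make, had 38.5, 28.4 and 37 CPM in SB431542 cut tails against 13.2, 18.6 and 11 CPM in DMSO cut tails (log2 fold change 1.28 ± 0.21 SE, adjusted p = 0.00425). mmp30 (ENSDARG00000045887), another metalloproteinase gene, had 48.9, 53.7 and 62.8 CPM with SB431542 against 29, 18.3 and 20.2 CPM with DMSO (log2 fold change 1.29 ± 0.20 SE, adjusted p = 0.00199), and both calls held in all 6 leave-one-out fits. In uncut tails MMP9 was at a lower level, with 4.13, 2.52 and 7.06 CPM with SB431542 and 1.86, 0.857 and 1.35 CPM with DMSO. The groups were apart there in the same direction (log2 fold change 1.74 ± 0.5 SE, adjusted p = 0.313), though the change was not called. mmp13a (ENSDARG00000012395), a collagenase of wounds, had 12.9, 12.9 and 19.7 CPM with SB431542 against 13.4, 20.8 and 10.5 CPM with DMSO (log2 fold change 0.02 ± 0.25 SE, adjusted p = 0.971), and the inhibitor gene TIMP2 (ENSDARG00000075261) 215, 247 and 224 CPM with SB431542 against 265, 294 and 357 CPM with DMSO (log2 fold change -0.42 ± 0.17 SE, adjusted p = 0.177). The groups of this TIMP2 gene did not overlap, but the change was not called. The second TIMP2 gene, ENSDARG00000061226, went the other way with groups that overlapped (log2 fold change 0.28 ± 0.18 SE, adjusted p = 0.417).

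**Figure D2:**
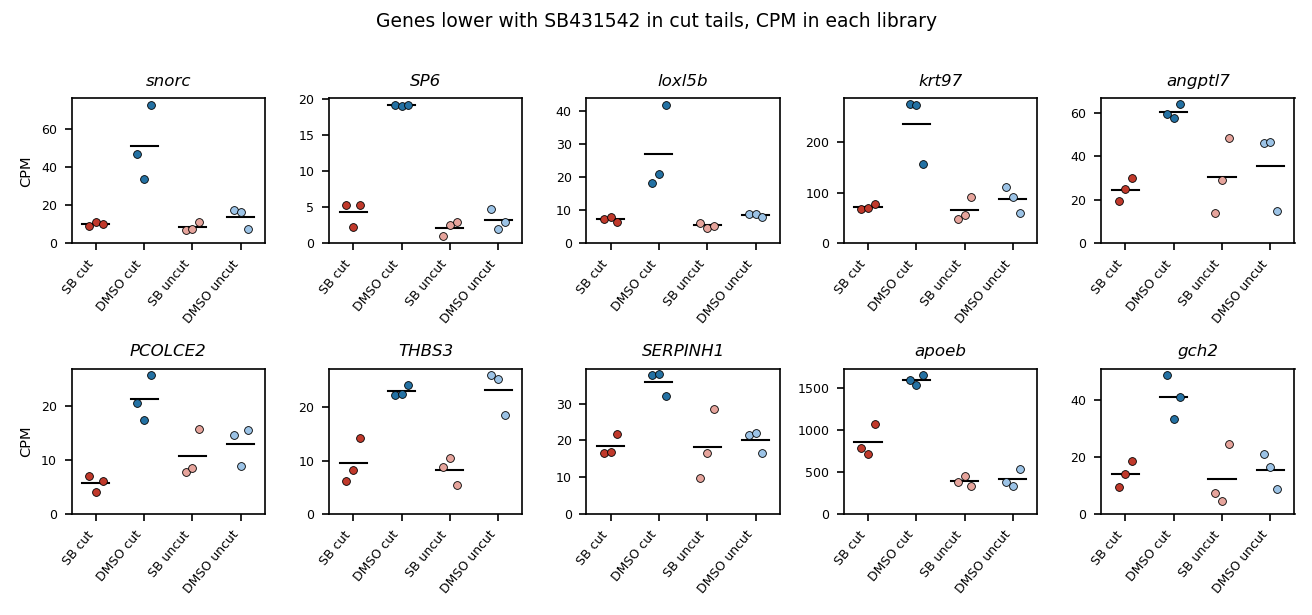
Levels in CPM of 10 genes called lower with SB431542 in cut tails, 1 panel a gene with its own axis from 0, 1 point a library and a bar at the mean of each group of 3. In cut tails the SB431542 points (red) lie below the DMSO points (blue) in all 10. In every panel but that of THBS3 the DMSO cut points also lie above all uncut points, by a narrow margin for PCOLCE2 and SERPINH1.

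Epidermal genes moved both ways. SP6 (ENSDARG00000099880), a zinc finger transcription factor gene of epithelia, had 5.32, 2.19 and 5.32 CPM in SB431542 cut tails, against 19.2, 19 and 19.2 CPM in DMSO cut tails (log2 fold change -2.18 ± 0.28 SE, adjusted p = 0.000396). The DMSO cut values hardly differed from each other and the uncut tails of both treatments stayed under 5 CPM. krt97 (ENSDARG00000000212), a keratin gene, had 66.9, 69.3 and 77 CPM with SB431542 against 276, 274 and 158 CPM with DMSO (log2 fold change -1.74 ± 0.20 SE, adjusted p = 0.000179), or 3.33-fold lower. Of 32 tested genes of periderm and superficial epidermis, 9.38% were called, against 3.09% over all genes. krt97 was the 1 lower, and 2 were higher (median of the list 0.19). These were icn (ENSDARG00000009978), an S100-type calcium-binding gene, with 580, 519 and 589 CPM with SB431542 against 324, 269 and 173 CPM with DMSO (log2 fold change 1.14 ± 0.20 SE, adjusted p = 0.00621), and evpla (ENSDARG00000019808), the envoplakin gene of the cornified envelope and desmosomes, which averaged 51.3 ± 14 CPM in SB431542 cut tails and 26.8 ± 6.84 CPM in DMSO cut tails (SD, n = 3 each, log2 fold change 0.93 ± 0.23 SE, adjusted p = 0.0415). The call of evpla ended without SB431542 replicates 2 or 3 or DMSO replicates 1, 3 or 4 (adjusted p between 0.0525 and 0.207), whereas those of SP6, krt97 and icn held in all 6 leave-one-out fits. epcam (ENSDARG00000040534), an epithelial adhesion gene, was the 1 higher of 16 basal epidermis genes, with 166, 169 and 148 CPM with SB431542 against 62.1, 92 and 83.4 CPM with DMSO (log2 fold change 1.02 ± 0.18 SE, adjusted p = 0.00557). The epcam call ended without SB431542 replicate 3 (adjusted p = 0.0506). The share called of the 16 was 6.25%, against 3.09% over all genes.

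Pigment cell genes had 2 lower and 0 higher of 23 tested, or 8.7% called against 3.09% over all genes, with a median of -0.09. gch2 (ENSDARG00000099101), the GTP cyclohydrolase that starts pteridine synthesis in yellow pigment cells and their precursors, had 9.44, 13.9 and 18.5 CPM in SB431542 cut tails and 48.6, 33.1 and 41 CPM in DMSO cut tails (log2 fold change -1.56 ± 0.23 SE, adjusted p = 0.00127). pmela (ENSDARG00000091298), a scaffold of melanin granules, had 41.7, 40 and 53.7 CPM with SB431542 against 95.7, 58.5 and 83.9 CPM with DMSO (log2 fold change -0.82 ± 0.20 SE, adjusted p = 0.0306). The pmela call ended without SB431542 replicates 2 or 3 or DMSO replicates 1 or 4 (adjusted p between 0.0832 and 0.197). In bulk tissue such as this, fewer cells of a type and less RNA per cell cannot be told apart.

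Among leukocyte genes the macrophage markers leaned down. Of 24 tested, 2 were lower and 1 was higher, the median was -0.30 and 17 had a negative value. The share called was 12.5%, against 3.09% over all genes. The summed level of the list lay between 1162 and 1626 CPM in SB431542 cut libraries and between 2027 and 2280 CPM in DMSO cut libraries, without overlap. Most of that sum came from 1 gene, and the lack of overlap may be that of this gene alone. The sum of the other members was not compared. The gene is apoeb (ENSDARG00000040295), a lipid carrier that macrophages and microglia of fish make. It is also on the list of lipid carrier genes, and which cells made it here was not tested. It had 780, 717 and 1070 CPM in SB431542 cut tails, against 1596, 1533 and 1664 CPM in DMSO cut tails (log2 fold change -0.91 ± 0.18 SE, adjusted p = 0.0115), while uncut tails held 382, 447 and 334 CPM with SB431542 and 381, 336 and 530 CPM with DMSO. LCP1 (ENSDARG00000023188), the actin-bundling plastin of leukocytes, had 20.9, 33.8 and 38.3 CPM with SB431542 against 46.5, 60.7 and 84.6 CPM with DMSO (log2 fold change -1.05 ± 0.24 SE, adjusted p = 0.0304). ctss2.1 (ENSDARG00000074656), a cathepsin S gene, was the exception, with 14, 24.9 and 29.8 CPM with SB431542 against 8.2, 13.1 and 11.9 CPM with DMSO (log2 fold change 1.05 ± 0.26 SE, adjusted p = 0.0388). The call of apoeb ended without SB431542 replicates 2 or 3 (adjusted p between 0.0649 and 0.108). That of LCP1 ended without SB431542 replicates 2 or 3 or DMSO replicates 3 or 4 (adjusted p between 0.0856 and 0.124). That of ctss2.1 ended without SB431542 replicates 3 or 4 or DMSO replicates 1, 3 or 4 (adjusted p between 0.0718 and 0.174). Without SB431542 replicate 2 or 3 none of the 24 was lower, without SB431542 replicate 4 3 were and without DMSO replicate 1 4 were, and the median stayed between -0.46 and -0.13.

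Of 20 tested neutrophil markers 15% were called, against 3.09% over all genes. The median of the list was 0.07, its summed levels overlapped, and 3 genes were higher and 0 lower. They were MMP9, given above, the transcription factor gene CEBPD (ENSDARG00000087303) with 205, 141 and 185 CPM with SB431542 against 123, 98.6 and 65.3 CPM with DMSO (log2 fold change 0.89 ± 0.21 SE, adjusted p = 0.0353), and s100a10b (ENSDARG00000025254), with 127, 166 and 171 CPM with SB431542 against 103, 90.2 and 96.4 CPM with DMSO (log2 fold change 0.67 ± 0.17 SE, adjusted p = 0.0375). None of the 3 is made by neutrophils alone. The call of CEBPD ended without SB431542 replicates 2, 3 or 4 or DMSO replicates 3 or 4 (adjusted p between 0.0694 and 0.122). That of s100a10b ended without SB431542 replicates 3 or 4 or DMSO replicates 1, 3 or 4 (adjusted p between 0.054 and 0.184). Of 21 cytokine, chemokine and acute inflammation genes the 1 called was nfkbiaa (ENSDARG00000005481), the feedback inhibitor of NF-κB, with 26.6, 29.4 and 28.6 CPM in SB431542 cut tails against 11.2, 20 and 14 CPM in DMSO cut tails (log2 fold change 0.90 ± 0.21 SE, adjusted p = 0.0284). The nfkbiaa call ended without SB431542 replicates 2 or 3 or DMSO replicates 1 or 4 (adjusted p between 0.0523 and 0.132). The share called of that list was 4.76%, against 3.09% over all genes. Its median was 0.39, and its summed level lay between 956 and 1043 CPM with SB431542 and between 820 and 904 CPM with DMSO. In the leave-one-out fits that median lay between 0.08 and 0.44, lowest without SB431542 replicate 4. In uncut tails the median of the list was 0.01. A chemokine gene that the list left out, ccl19a.2 (ENSDARG00000035632), was called lower (log2 fold change -2.22 ± 0.44 SE, adjusted p = 0.0117). It averaged 2.1 CPM over the 6 cut libraries and was picked after its values were seen.

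Coagulation and complement genes were split. The factor V gene f5 (ENSDARG00000055705) had 5.57, 4.47 and 3.86 CPM in SB431542 cut tails against 9.82, 11.9 and 12 CPM in DMSO cut tails (log2 fold change -1.28 ± 0.25 SE, adjusted p = 0.0115), the complement gene c4b (ENSDARG00000038424) 15.1, 18.9 and 17.4 CPM with SB431542 against 27.8, 27.4 and 28.4 CPM with DMSO (log2 fold change -0.70 ± 0.18 SE, adjusted p = 0.042), and the complement gene c7b (ENSDARG00000057121) 11.9, 12.3 and 10.5 CPM with SB431542 against 5.76, 5.23 and 3.75 CPM with DMSO (log2 fold change 1.23 ± 0.25 SE, adjusted p = 0.0134). They were the 2 lower and the 1 higher of 10 tested, or 30% called against 3.09% over all genes. f13a1b (ENSDARG00000036893), the subunit of the transglutaminase that cross-links fibrin, had 7.62, 7.23 and 12.9 CPM with SB431542 against 16.2, 24 and 27.3 CPM with DMSO (log2 fold change -1.28 ± 0.25 SE, adjusted p = 0.0116). All of these separated the groups, but none held its call in all 6 leave-one-out fits. That of f5 ended without SB431542 replicate 3 or DMSO replicate 3 (adjusted p between 0.0593 and 0.092). That of c4b ended without SB431542 replicates 2, 3 or 4 or DMSO replicates 1, 3 or 4 (adjusted p between 0.0546 and 0.127). That of c7b ended without SB431542 replicate 3 or DMSO replicates 3 or 4 (adjusted p between 0.0537 and 0.0966). That of f13a1b ended without SB431542 replicates 2 or 3 or DMSO replicates 3 or 4 (adjusted p between 0.0513 and 0.108).

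Clock and light-responsive genes were the list with the most calls in 1 direction. Of 31 tested, 7 were higher and 0 lower, or 22.6% against 3.09% over all genes, with a median log2 fold change of 0.36 and 24 positive values. The list and its members were chosen with earlier results of these data known, so these shares are a description and no test. In fish these genes respond to light directly in peripheral tissue, through light-sensitive cryptochrome and period genes and through factors of the PAR bZIP family that bind their promoters. lonrf1 (ENSDARG00000078567), which encodes a RING finger protein with a LON domain, had 97.4, 92.2 and 50.5 CPM in SB431542 cut tails, against 16.1, 18.2 and 16.5 CPM in DMSO cut tails (log2 fold change 2.24 ± 0.23 SE, adjusted p = 4.89e-05). tefa (ENSDARG00000039117), a PAR bZIP factor, had 72.1, 94 and 49.4 CPM with SB431542 against 27.1, 22.7 and 22.2 CPM with DMSO (log2 fold change 1.58 ± 0.22 SE, adjusted p = 0.00083). PER2 (ENSDARG00000034503), a period gene induced by light in zebrafish, had 22, 28.1 and 19.6 CPM with SB431542 against 11.9, 6.75 and 11.1 CPM with DMSO (log2 fold change 1.23 ± 0.23 SE, adjusted p = 0.0101). For lonrf1 and tefa the DMSO values lay close together, and in all 3 genes SB431542 replicate 4 was the lowest of its group but above every DMSO library.

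cry5 (ENSDARG00000019498), the gene of a 6-4 photolyase that repairs ultraviolet damage, had 31.7, 31.5 and 18.9 CPM with SB431542 against 11, 11.3 and 12.1 CPM with DMSO (log2 fold change 1.25 ± 0.22 SE, adjusted p = 0.00557). The other 3 were csnk1da, a casein kinase gene whose product phosphorylates period proteins, XPC, which recognises damaged DNA, and BHLHE40, a repressor of the clock, with log2 fold changes of 0.84 ± 0.18 (SE), 1.69 ± 0.32 (SE) and 0.79 ± 0.19 (SE) and adjusted p-values of 0.0158, 0.0233 and 0.036. Chosen after their values were seen, the cryptochrome genes cry3b and cry-dash (log2 fold changes 0.85 and 1.18), the ultraviolet damage gene DDB2 (1.06), the DNA glycosylase gene NEIL1 (1.28) and the lonrf1 paralogue lonrf4 (1.55) were called higher too. BMAL1 (ENSDARG00000006791), a core activator of the clock, and dbpb, another PAR bZIP factor, had log2 fold changes of 1.38 and -0.90 and were not called (adjusted p = 0.0646 and 0.0843). Without SB431542 replicate 3 only 2 of the 31 were called higher, and without DMSO replicate 3 only 3. The calls of lonrf1, tefa and lonrf4 held in all 6 fits. That of cry5 ended without SB431542 replicate 3 (adjusted p = 0.0622). That of PER2 ended without SB431542 replicate 3 or DMSO replicate 3 (adjusted p between 0.0556 and 0.0935). That of csnk1da ended without SB431542 replicate 3 or DMSO replicates 3 or 4 (adjusted p between 0.0511 and 0.0943). That of XPC ended without SB431542 replicates 2 or 3 or DMSO replicates 1, 3 or 4 (adjusted p between 0.0588 and 0.146). That of BHLHE40 ended without SB431542 replicates 2 or 3 or DMSO replicates 1, 3 or 4 (adjusted p between 0.0654 and 0.121). Those of cry-dash and DDB2 ended without SB431542 replicate 3, and those of cry3b and NEIL1 without SB431542 replicates 2 or 3 or DMSO replicates 3 or 4. The labels give no time of day for treatment or collection.

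The largest increase by the naming rule was in soul5 (ENSDARG00000075015), a gene of the SOUL family of heme-binding proteins. It had 36.4, 38.5 and 21.5 CPM in SB431542 cut tails and 2.76, 2.66 and 4.11 CPM in DMSO cut tails (log2 fold change 3.33 ± 0.27 SE, adjusted p = 4.71e-06), a level 10.1-fold higher. Among uncut tails 1 library, SB431542 replicate 2, held 83.0 CPM, while the others of its group held 8.58 and 4.64 CPM and the DMSO libraries 3.05, 3.85 and 5.58 CPM. That library was also the highest of its group for lonrf1 (125, 33.7 and 44.9 CPM in replicates 2, 3 and 4), tefa, PER2 and cry5. wdr76 (ENSDARG00000053554), a WD-repeat gene, had the same order of libraries, with 36.5, 46.7 and 20.8 CPM with SB431542 against 8.93, 7.61 and 11.1 CPM with DMSO in cut tails (log2 fold change 1.91 ± 0.27 SE, adjusted p = 0.00162) and 49.8, 13.5 and 7.56 CPM in uncut SB431542 tails.

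**Figure D3:**
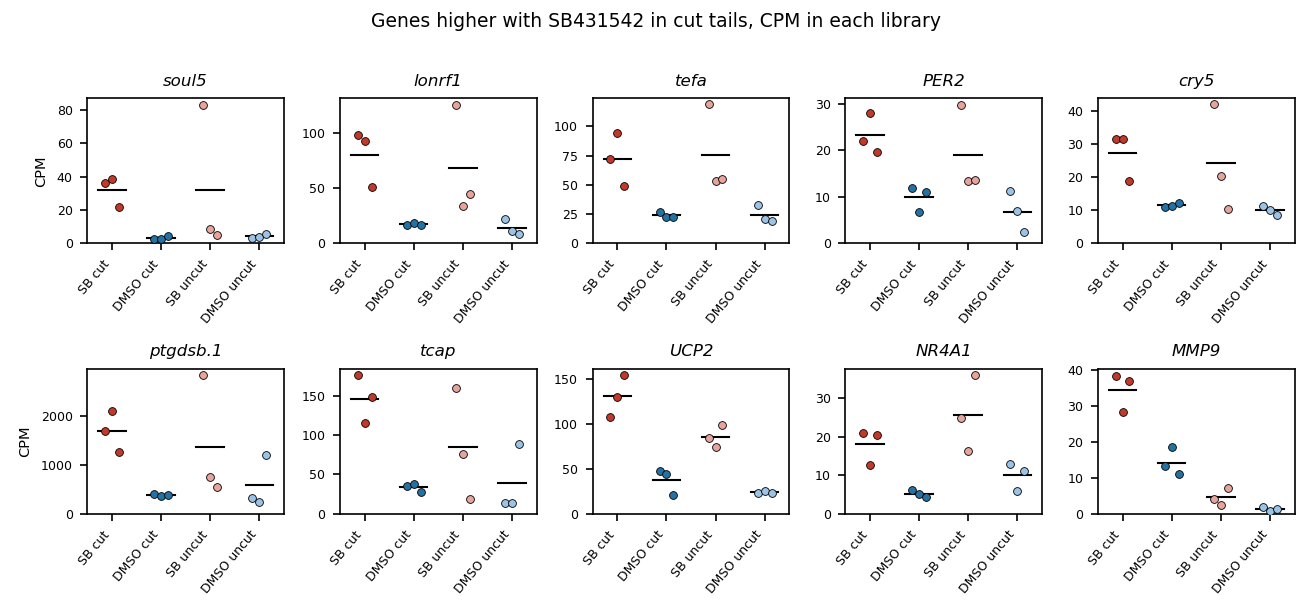
Levels in CPM of 10 genes called higher with SB431542 in cut tails, drawn as in the plot of the lower genes, with clock and light-responsive genes mostly in the upper row. The SB431542 cut points lie above the DMSO cut points in all 10, and in the upper row uncut SB431542 replicate 2 is the highest of the uncut libraries.

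Genes of the mitochondrial uncoupling proteins rose together. UCP2, UCP1 and ucp3 were the 3 higher of 55 tested genes for fatty acid oxidation, ketone metabolism and mitochondrial carriers, of which 1 was lower, the acyl-CoA dehydrogenase gene ACADSB (ENSDARG00000098174, log2 fold change -0.72), with a median of 0.03. The share called of the 55 was 7.27%, against 3.09% over all genes. Uncoupling proteins sit in the inner mitochondrial membrane, where UCP1 of mammalian brown fat lets protons back in and makes heat, and UCP2 and UCP3 are linked to the export of carbon compounds and to protection from oxidative stress. UCP2 (ENSDARG00000043154) had 108, 130 and 155 CPM in SB431542 cut tails, against 48.1, 43.9 and 21 CPM in DMSO cut tails (log2 fold change 1.79 ± 0.26 SE, adjusted p = 0.00369). It is also 1 of the 4 genes called in uncut tails, where it had 85.1, 74.6 and 98.6 CPM with SB431542 and 23.2, 25 and 23.4 CPM with DMSO (log2 fold change 1.85 ± 0.19 (SE), adjusted p = 0.00475, and 1.77 and 0.000117 without uncut SB431542 replicate 4). UCP1 (ENSDARG00000023151) had 324, 303 and 306 CPM with SB431542 against 152, 194 and 154 CPM with DMSO in cut tails (log2 fold change 0.89 ± 0.16 SE, adjusted p = 0.00808), and ucp3 (ENSDARG00000091209) 31.3, 15.6 and 20.8 CPM with SB431542 against 10.4, 10.3 and 9.6 CPM with DMSO (log2 fold change 1.15 ± 0.24 SE, adjusted p = 0.0154). The UCP2 call held in all 6 leave-one-out fits. That of UCP1 ended without SB431542 replicate 3 (adjusted p = 0.0516). That of ucp3 ended without SB431542 replicate 2 or DMSO replicates 3 or 4 (adjusted p between 0.0612 and 0.073). That of ACADSB ended without SB431542 replicates 2 or 3 or DMSO replicates 1, 3 or 4 (adjusted p between 0.0755 and 0.172).

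Of a list of respiratory chain subunit genes 78 were tested, with a median of -0.03. The share called was 1.28%, against 3.09% over all genes, with 1 higher and 0 lower. The 1 was COX7A2 (ENSDARG00000110700), a gene with few counts (1.69, 2.86 and 3.03 CPM with SB431542 against 0.325, 0.285 and 0.0914 CPM with DMSO, log2 fold change 3.35 ± 0.60 SE, adjusted p = 0.00637), and its call ended without SB431542 replicate 3 (adjusted p = 0.0728). The subunit genes ndufa4b and MT-ND6, which the list left out, were called higher too and are named after their values were seen. Their log2 fold changes were 1.32 ± 0.23 (SE) and 0.91 ± 0.19 (SE), with adjusted p-values of 0.00653 and 0.016. Leave-one-out fits of ndufa4b and MT-ND6 are not given here. Genes that help to assemble the chain or its cofactors were also among the higher calls, chosen after their values were seen. COX15 and COA3, which act in the assembly of cytochrome oxidase, had log2 fold changes of 1.35 ± 0.23 (SE) and 1.32 ± 0.23 (SE). HCCS (ENSDARG00000028131), which attaches heme to cytochrome c, had 1.05 ± 0.26 (SE). ISCU (ENSDARG00000035596) and GLRX5, of iron-sulfur cluster assembly, had 0.87 ± 0.17 (SE) and 0.99 ± 0.18 (SE). SDHAF4 and NDUFAF1, assembly factors of the complexes that take electrons from succinate and from NADH, had 0.95 ± 0.19 (SE) and 0.73 ± 0.18 (SE). tspo, which encodes a cholesterol- and heme-binding protein of the outer mitochondrial membrane, had 186, 238 and 156 CPM in SB431542 cut tails against 60.7, 66 and 74 CPM in DMSO cut tails (log2 fold change 1.53 ± 0.19 SE, adjusted p = 0.000279), a call that held in all 6 leave-one-out fits. The call of COX15 ended without SB431542 replicate 3 (adjusted p = 0.0506). That of COA3 ended without SB431542 replicate 3 (adjusted p = 0.0731). Those of ISCU, GLRX5 and SDHAF4 ended without SB431542 replicate 3 or DMSO replicate 3. That of HCCS ended without SB431542 replicates 2 or 3 or DMSO replicates 3 or 4 (adjusted p between 0.0972 and 0.136). That of NDUFAF1 ended without SB431542 replicates 2, 3 or 4 or DMSO replicates 3 or 4 (adjusted p between 0.0513 and 0.168).

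Genes of foreign-compound metabolism included higher calls. Of 13 tested aryl hydrocarbon receptor targets 2 were higher and 0 lower, or 15.4% against 3.09% over all genes, with a median of 0.23. cyp1c1 (ENSDARG00000101195), a cytochrome P450 gene, had 14.3, 18.6 and 10 CPM in SB431542 cut tails against 4.3, 6.18 and 3.66 CPM in DMSO cut tails (log2 fold change 1.6 ± 0.28 SE, adjusted p = 0.00557). UGT1A1 (ENSDARG00000006220), a glucuronosyltransferase gene, had 3.39, 5.23 and 3.34 CPM with SB431542 against 1.71, 0.856 and 0.914 CPM with DMSO (log2 fold change 1.76 ± 0.42 SE, adjusted p = 0.0299). CYP1A1 (ENSDARG00000098315), the standard readout of that receptor, was left off the list by its symbol and is described after its values were seen. It had 37, 47.6 and 25.5 CPM with SB431542 against 10.3, 13.2 and 12.2 CPM with DMSO (log2 fold change 1.62 ± 0.23 SE, adjusted p = 0.00083), and its call held in all 6 leave-one-out fits. CYP1B1 and cyp1c2 had few counts and log2 fold changes of 1.68 ± 0.64 (SE) and 0.82 ± 0.61 (SE), not called. The glutathione transferase gene gstp1.2 (ENSDARG00000104068) had 459, 501 and 523 CPM with SB431542 against 317, 266 and 213 CPM with DMSO (log2 fold change 0.89 ± 0.18 SE, adjusted p = 0.0115). It was the 1 called of 38 tested genes on the oxidative stress and glutathione list (2.63%, against 3.09% over all genes). That share covers the list alone. Chosen after their values were seen, gstt1b, MGST3, txnb and prxl2b, which the list left out, were called higher too. Their log2 fold changes were 1.03, 0.76, 0.86 and 1.51 (adjusted p = 0.0172, 0.0255, 0.0104 and 0.00205). Such genes off the list were not counted in either direction. The call of cyp1c1 ended without SB431542 replicate 3 (adjusted p = 0.074). That of UGT1A1 ended without SB431542 replicate 3 or DMSO replicates 3 or 4 (adjusted p between 0.102 and 0.2). That of gstp1.2 ended without SB431542 replicate 3 or DMSO replicate 3 (adjusted p between 0.0556 and 0.0832).

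2 members of the lipocalin-type prostaglandin D synthase family were among the largest increases. ptgdsb.1 (ENSDARG00000027088) had 1684, 2101 and 1271 CPM in SB431542 cut tails, against 400, 371 and 376 CPM in DMSO cut tails (log2 fold change 2.14 ± 0.20 SE, adjusted p = 1.3e-05), and ptgdsb.2 (ENSDARG00000071626) had 217, 305 and 191 CPM with SB431542 against 67.3, 64.3 and 59.5 CPM with DMSO (log2 fold change 1.90 ± 0.19 SE, adjusted p = 3.28e-05). Such lipocalins carry small lipophilic molecules, and in mammals the enzyme makes prostaglandin D2. Reads shared between such copies could be counted for either gene. In uncut tails ptgdsb.1 ranged widely, with 2829, 741 and 540 CPM with SB431542 and 331, 249 and 1207 CPM with DMSO, the DMSO library at 1207 CPM being replicate 4.

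Of 59 tested skeletal muscle genes 2 were higher and 0 lower, or 3.39% against 3.09% over all genes, with a median of 0.09. mybphb (ENSDARG00000003081), a myosin-binding protein gene of fast fibres, had 272, 232 and 364 CPM in SB431542 cut tails against 136, 140 and 146 CPM in DMSO cut tails (log2 fold change 1.03 ± 0.18 SE, adjusted p = 0.00553), and JPH1 (ENSDARG00000038826), which tethers membranes at the calcium release sites, averaged 23.9 ± 5.29 CPM in SB431542 cut tails and 10.6 ± 0.408 CPM in DMSO cut tails (SD, n = 3 each, log2 fold change 1.17 ± 0.20 SE, adjusted p = 0.00557). tcap (ENSDARG00000007344), the titin cap of the sarcomere and not a member of the list, had 176, 115 and 148 CPM with SB431542 against 35.2, 37.2 and 28.2 CPM with DMSO (log2 fold change 2.12 ± 0.19 SE, adjusted p = 1.3e-05), or 4.35-fold higher. All 3 calls held in all 6 leave-one-out fits. In uncut tails tcap had 160, 75.9 and 18.6 CPM with SB431542 and 13.1, 14 and 88.2 CPM with DMSO, groups that overlapped. Of 29 non-muscle actin and contractile genes 2 were higher, or 6.9% against 3.09% over all genes. They were the alpha-actinin gene ACTN1 (ENSDARG00000007219) (12.5, 27.4 and 31.5 CPM with SB431542 against 7.63, 8.18 and 6.95 CPM with DMSO, log2 fold change 1.64 ± 0.28 SE, adjusted p = 0.00596) and the tropomyosin gene tpm4a (ENSDARG00000023963) (47.9, 39.5 and 34.9 CPM with SB431542 against 24.1, 24.1 and 20.8 CPM with DMSO, log2 fold change 0.82 ± 0.18 SE, adjusted p = 0.022). The call of ACTN1 ended without SB431542 replicate 3 (adjusted p = 0.0516). That of tpm4a ended without SB431542 replicates 2 or 3 or DMSO replicates 3 or 4 (adjusted p between 0.0742 and 0.104).

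Early response genes leaned upward. Of 50 tested immediate early and AP-1 genes 4 were higher and 0 lower, with a median of 0.38 and 37 positive values. The share called was 8%, against 3.09% over all genes. NR4A1 (ENSDARG00000000796), an orphan nuclear receptor gene that stress and growth signals induce within minutes, had 21.1, 12.8 and 20.6 CPM in SB431542 cut tails, against 6.17, 5.14 and 4.39 CPM in DMSO cut tails (log2 fold change 1.78 ± 0.25 SE, adjusted p = 0.00083). ATF3 (ENSDARG00000007823), a stress transcription factor gene, had 49, 41.3 and 29.3 CPM with SB431542 against 14.7, 20.5 and 24.6 CPM with DMSO (log2 fold change 1 ± 0.23 SE, adjusted p = 0.0252). DUSP1 (ENSDARG00000100515), which encodes a phosphatase that switches off stress kinases, had 11.6, 9.9 and 9.29 CPM with SB431542 against 4.71, 5.61 and 3.47 CPM with DMSO (log2 fold change 1.15 ± 0.26 SE, adjusted p = 0.0251). GADD45B (ENSDARG00000013576), a growth arrest gene, had 15.4, 8.47 and 7.83 CPM with SB431542 against 3.65, 6.37 and 3.84 CPM with DMSO (log2 fold change 1.19 ± 0.31 SE, adjusted p = 0.0496). Only NR4A1 held its call in all 6 leave-one-out fits, and without DMSO replicate 3 or SB431542 replicate 3 it was the 1 called gene of the list. The call of ATF3 ended without SB431542 replicates 2 or 3 or DMSO replicates 1 or 3 (adjusted p between 0.0601 and 0.122). That of DUSP1 ended without SB431542 replicates 2 or 3 or DMSO replicates 3 or 4 (adjusted p between 0.0524 and 0.108). That of GADD45B ended without SB431542 replicates 2 or 3 or DMSO replicates 1, 3 or 4 (adjusted p between 0.0552 and 0.214).

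Translation control and amino acid supply were touched at single genes. EEF2K (ENSDARG00000035835), the kinase that slows translation elongation, had 29.2, 38.2 and 36.9 CPM in SB431542 cut tails against 8.69, 7.71 and 1.74 CPM in DMSO cut tails (log2 fold change 2.51 ± 0.47 SE, adjusted p = 0.0372). DMSO replicate 4 was far below the other DMSO libraries, and the call ended without SB431542 replicates 2, 3 or 4 or DMSO replicate 3 (adjusted p between 0.0962 and 0.135). Of 27 amino acid response and Atf4 target genes 3 were higher and 1 lower (median -0.01), or 14.8% called against 3.09% over all genes. DDIT3 (ENSDARG00000059836), the stress factor CHOP, had 13.3, 10.7 and 6.05 CPM with SB431542 against 3.82, 3.14 and 3.66 CPM with DMSO (log2 fold change 1.49 ± 0.31 SE, adjusted p = 0.0147), SLC7A3 (ENSDARG00000020645), a transporter of basic amino acids, had a log2 fold change of 1.25 ± 0.33 (SE), and the third was ATF3. PSAT1 (ENSDARG00000016733), an enzyme of serine synthesis, was lower, with 9.2, 12.2 and 13.1 CPM with SB431542 against 18.9, 26.4 and 23.3 CPM with DMSO (log2 fold change -0.99 ± 0.21 SE, adjusted p = 0.016). Of 40 genes of protein folding and endoplasmic reticulum stress 3 were higher (DDIT3, EDEM1 and FKBP10 ENSDARG00000099183) and 2 were lower (calr3b and MANF), with a median of -0.21. The share called of the 40 was 12.5%, against 3.09% over all genes. EDEM1 and MANF act in the disposal and folding of proteins in that compartment, with log2 fold changes of 1.07 ± 0.22 (SE) and -0.75 ± 0.19 (SE), and FKBP10, a collagen chaperone, had 2.24 ± 0.54 (SE). calr3b (ENSDARG00000102808), a calreticulin-like lectin chaperone gene, had 76.5, 86.5 and 73.3 CPM with SB431542 against 116, 144 and 159 CPM with DMSO (log2 fold change -0.83 ± 0.17 SE, adjusted p = 0.015). Without SB431542 replicate 3 or DMSO replicate 3 none of the 40 was called, and none of the 27 without either of these or without SB431542 replicate 2. The call of DDIT3 ended without SB431542 replicates 2 or 3 or DMSO replicates 3 or 4 (adjusted p between 0.0503 and 0.0956). That of PSAT1 ended without SB431542 replicates 2 or 3 or DMSO replicates 3 or 4 (adjusted p between 0.0503 and 0.0948). That of calr3b ended without SB431542 replicates 2 or 3 or DMSO replicate 3 (adjusted p between 0.0513 and 0.082). That of SLC7A3 ended without SB431542 replicates 2 or 3 or DMSO replicates 1, 3 or 4 (adjusted p between 0.0808 and 0.202).

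Of 18 tested ionocyte and mucous cell genes 2 were higher and 0 lower, or 11.1% against 3.09% over all genes, with a median of 0.06. Both carry the symbol RHCG, for Rh glycoproteins that pass ammonia across the skin and gills of fish. ENSDARG00000007080 had 29.5, 23.3 and 20.3 CPM in SB431542 cut tails against 10.6, 6.94 and 4.02 CPM in DMSO cut tails (log2 fold change 1.75 ± 0.29 SE, adjusted p = 0.00529), and ENSDARG00000003203 20.6, 15.5 and 22.4 CPM with SB431542 against 11.3, 8.94 and 5.12 CPM with DMSO (log2 fold change 1.19 ± 0.26 SE, adjusted p = 0.0194). The call of ENSDARG00000007080 held in all 6 leave-one-out fits. That of ENSDARG00000003203 ended without SB431542 replicates 2 or 3 or DMSO replicates 3 or 4 (adjusted p between 0.0595 and 0.0683). The summed level of the whole list was lower with SB431542, between 1120 and 1293 CPM with SB431542 and between 1339 and 1596 CPM with DMSO.

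Genes of DNA replication leaned down. Of 46 tested, 3 were lower and 1 higher, the median was -0.41 and 36 were negative, beside a median of -0.008 over all genes. The share called was 8.7%, against 3.09% over all genes. UHRF1 (ENSDARG00000103409), which keeps DNA methylation through replication, had 14.2, 16.7 and 17.7 CPM in SB431542 cut tails against 26.5, 31.1 and 38.9 CPM in DMSO cut tails (log2 fold change -1 ± 0.20 SE, adjusted p = 0.0115). POLA1 (ENSDARG00000045308), the catalytic subunit of the polymerase that primes DNA synthesis, had 17.2, 15.1 and 19 CPM with SB431542 against 36.9, 25.2 and 32.7 CPM with DMSO (log2 fold change -0.89 ± 0.19 SE, adjusted p = 0.0194). MCM10 (ENSDARG00000045815), an initiator of replication forks, had 2.9, 1.9 and 3.97 CPM with SB431542 against 7.31, 8.66 and 6.58 CPM with DMSO (log2 fold change -1.37 ± 0.31 SE, adjusted p = 0.0251). RRM2 (ENSDARG00000078069), a subunit of ribonucleotide reductase, was higher, with 33.2, 41.3 and 62.1 CPM with SB431542 against 22.3, 21.5 and 15.8 CPM with DMSO (log2 fold change 1.19 ± 0.22 SE, adjusted p = 0.00861), and its call held in all 6 leave-one-out fits. A second gene of that symbol was not called.

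The SB431542 libraries were spread to both sides for these genes. Their median deviations from the group mean were 0.30 log2 units in replicate 4, -0.24 in replicate 2 and -0.04 in replicate 3. Without SB431542 replicate 4, 10 replication genes were lower, and without SB431542 replicate 3 or DMSO replicate 4 none was. The median of the list stayed between -0.52 and -0.20 across all 6 leave-one-out fits. The call of UHRF1 ended without SB431542 replicate 3 or DMSO replicate 4 (adjusted p between 0.0503 and 0.0851). That of POLA1 ended without SB431542 replicates 2 or 3 or DMSO replicates 1 or 4 (adjusted p between 0.0513 and 0.139). That of MCM10 ended without SB431542 replicates 2 or 3 or DMSO replicates 3 or 4 (adjusted p between 0.0537 and 0.162). Of 47 mitosis and cytokinesis genes 1 was higher, or 2.13% against 3.09% over all genes, 0 were lower and the median was -0.17. It was hmgb2b (ENSDARG00000053990), a chromatin protein gene, with 30.5, 57.9 and 66.8 CPM with SB431542 against 23.1, 23.9 and 22.6 CPM with DMSO (log2 fold change 1.15 ± 0.23 SE, adjusted p = 0.0134). The hmgb2b call ended without SB431542 replicate 3 or DMSO replicates 3 or 4 (adjusted p between 0.0619 and 0.104).

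The medians of both lists of protein and ribosome turnover lay below 0. Of 49 proteasome subunit genes 0 were higher and 2 lower, or 4.08% against 3.09% over all genes, with a median of -0.35 and 40 negative values. The 2 were the regulatory particle genes PSMD13 and PSMD6, at log2 fold changes of -0.67 ± 0.17 (SE) and -0.69 ± 0.18 (SE) (adjusted p = 0.046 and 0.0464). Of 57 ribosome biogenesis genes none was called, the median was -0.24 and 47 were negative, and their summed level lay between 1875 and 2071 CPM with SB431542 and between 2298 and 2392 CPM with DMSO, without overlap. In the leave-one-out fits the median of the proteasome list stayed between -0.43 and -0.18 and that of ribosome biogenesis between -0.27 and -0.18. No proteasome gene was called without DMSO replicate 3, DMSO replicate 4, SB431542 replicate 2 or SB431542 replicate 3. How far these lists move together with the replication genes was not tested.

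**Figure D4:**
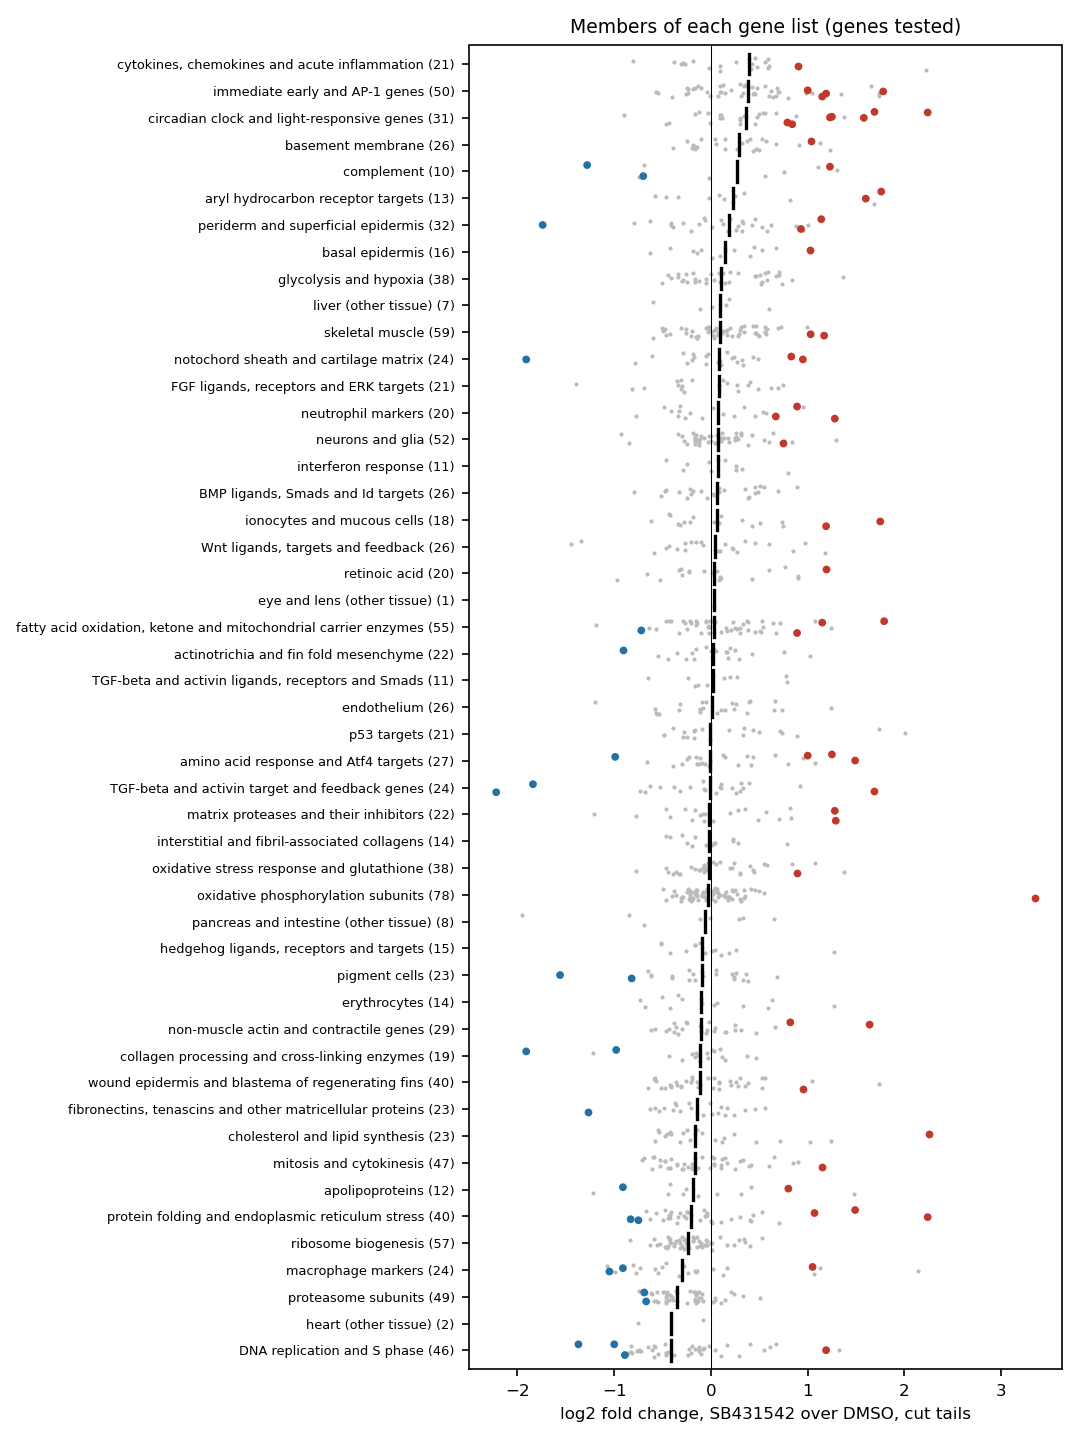
Log2 fold change of SB431542 over DMSO in cut tails for the tested members of all 49 lists, in order of the list median (black bar), with genes called higher in red, called lower in blue and not called in grey, and the number of tested members after each name. Clock, immediate early and cytokine genes stand at the top with medians of 0.36 to 0.39, and replication (-0.41), proteasome (-0.35) and macrophage genes (-0.30) near the bottom. Without SB431542 replicate 4 the cytokine median was 0.08.

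Other named changes belong to no list. CRTAC1 (ENSDARG00000059826), which encodes a secreted cartilage acidic protein, had 42.6, 68.7 and 44 CPM in SB431542 cut tails against 7.88, 12.5 and 9.14 CPM in DMSO cut tails (log2 fold change 2.40 ± 0.23 SE, adjusted p = 2.46e-05). ANKRD9 (ENSDARG00000028804), which encodes an ankyrin repeat protein, had 36.9, 24.7 and 34.3 CPM with SB431542 against 6.98, 8.94 and 6.76 CPM with DMSO (log2 fold change 2.07 ± 0.21 SE, adjusted p = 3.94e-05). RNF128, a ubiquitin ligase gene, had a log2 fold change of 1.73 ± 0.29 (SE), CDIN1, a nuclease gene, 1.84 ± 0.33 (SE), and btr12, of a family related to TRIM ligases, 1.94 ± 0.46 (SE). On the lower side were hpcal4, a neuronal calcium sensor gene (-1.57 ± 0.24 (SE)), alpi.1, an alkaline phosphatase gene (-1.29 ± 0.26 (SE)), and srpk1b, a kinase gene of splicing factors (-1.24 ± 0.29 (SE)). CRTAC1, ANKRD9, RNF128 and hpcal4 kept their call in all 6 leave-one-out fits. The call of CDIN1 ended without SB431542 replicate 3 (adjusted p = 0.089). That of btr12 ended without SB431542 replicates 2 or 3 or DMSO replicates 1, 3 or 4 (adjusted p between 0.0671 and 0.124). That of alpi.1 ended without SB431542 replicates 2 or 3 or DMSO replicates 3 or 4 (adjusted p between 0.0585 and 0.0855). That of srpk1b ended without SB431542 replicates 2 or 3 or DMSO replicates 1, 3 or 4 (adjusted p between 0.0512 and 0.124).

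Single genes of 5 more lists were higher. The shares called were 3.85% of basement membrane, 16.7% of lipid carrier, 4.35% of sterol, 5% of retinoid and 1.92% of neural genes. Over all genes tested the share was 3.09%. NID1 (ENSDARG00000068710), the basement membrane linker nidogen, had 31.9, 47.2 and 40 CPM in SB431542 cut tails against 23.6, 19.5 and 15.2 CPM in DMSO cut tails (log2 fold change 1.03 ± 0.20 SE, adjusted p = 0.0117), the 1 called of 26 basement membrane and integrin genes, whose median was 0.29. APOD (ENSDARG00000057437), a lipocalin, had 73.9, 73 and 56.9 CPM with SB431542 against 43, 37.2 and 36.5 CPM with DMSO (log2 fold change 0.80 ± 0.17 SE, adjusted p = 0.0195), and with apoeb it makes the 1 higher and 1 lower of 12 lipid carrier genes. MSMO1 (ENSDARG00000055876), an enzyme of cholesterol synthesis, had 2.18, 2.76 and 3.65 CPM with SB431542 against 0.731, 0.761 and 0.274 CPM with DMSO (log2 fold change 2.25 ± 0.51 SE, adjusted p = 0.024), while the 23 sterol genes had a median of -0.16. The retinol carrier gene rbp7a (1.19 ± 0.31 (SE)) and the tubulin gene tubb5 (0.74 ± 0.18 (SE)) were the 1 called gene of 20 retinoid and 52 neural genes. The call of NID1 ended without SB431542 replicate 3 or DMSO replicates 3 or 4 (adjusted p between 0.052 and 0.108). That of APOD ended without SB431542 replicates 2 or 3 or DMSO replicates 3 or 4 (adjusted p between 0.0607 and 0.124). That of MSMO1 ended without SB431542 replicates 3 or 4 or DMSO replicates 3 or 4 (adjusted p between 0.0608 and 0.117). That of tubb5 ended without SB431542 replicate 3 or DMSO replicates 3 or 4 (adjusted p between 0.101 and 0.137), and that of rbp7a in each of the 6 leave-one-out fits.

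In 16 of the 49 lists no gene was called. Besides the pathway, BMP, collagen and ribosome biogenesis lists above, they cover the Wnt (26 tested), hedgehog (15) and FGF (21) pathways, p53 targets (21), interferon response (11), glycolysis and hypoxia (38), endothelium (26), erythrocytes (14), liver (7), pancreas and intestine (8), heart (2) and eye and lens (1). These counts cover the listed genes alone, and a list need not hold every gene of its theme. The enolase gene eno2, on none of these lists and picked after its values were seen, was called higher (log2 fold change 0.81, adjusted p = 0.0236). The medians of the Wnt, hedgehog, FGF, p53, interferon, glycolysis, endothelium and erythrocyte lists lay between -0.10 and 0.10. Of 40 wound epidermis and blastema genes the 1 called was hapln1a, and of 22 actinotrichia and fin fold genes it was DLX5 (ENSDARG00000042296), a homeobox gene of fin and skeleton, at -0.91 ± 0.23 (SE) (adjusted p = 0.042). The shares called were 2.5% of the wound epidermis and blastema list and 4.55% of the fin fold list, against 3.09% over all genes. The DLX5 call ended without SB431542 replicates 2 or 3 or DMSO replicates 1, 3 or 4 (adjusted p between 0.0574 and 0.238). Erythrocyte markers summed to between 1890 and 2777 CPM in SB431542 cut libraries and between 2152 and 4528 CPM in DMSO cut libraries.

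Uncut tails under the same 2 treatments give the SB431542 effect in larvae that were not wounded. Of 12477 genes tested there, 4 were called (0.0321%), 2 higher and 2 lower, and 1445 had an unadjusted p under 0.05. The 2 higher were UCP2 and PAOX ENSDARG00000003380, a polyamine oxidase gene, and the 2 lower were the other gene of that symbol, PAOX ENSDARG00000109596, and ENSDARG00000111737, for which no symbol was matched, both at 0 in all uncut SB431542 libraries. The 2 PAOX genes went opposite ways, and counts could be split between such copies by the authors' counting. The calls were 4 higher and 3 lower without uncut SB431542 replicate 4, 6 and 5 without replicate 3 and 2 and 2 without replicate 2, and none was made without DMSO replicate 1, 2 or 4. The uncut libraries were noisier, with a biological coefficient of variation of 0.287 against 0.211 in cut tails, or 0.218 without uncut SB431542 replicate 4.

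The genes called in cut tails tended to have the same sign in uncut tails. Of the 292 higher genes 279 were tested there, 256 had a positive log2 fold change, 155 of them at an unadjusted p under 0.05, and their median was 0.81, against 1.16 in cut tails. Of the 122 lower genes 113 were tested, 105 had a negative value, 20 at an unadjusted p under 0.05, and their median was -0.39 against -0.91 in cut tails. Over all genes tested in uncut tails, 50.1% had a positive value and 11.6% had an unadjusted p under 0.05 in either direction. The called genes were chosen on their cut values, which favours larger values in cut tails. Without uncut SB431542 replicate 4 the medians were 0.78 and -0.42, and 266 of 282 and 104 of 113 had the same sign. Over all 12321 genes tested in both comparisons, which share no library, Pearson's r between the log2 fold changes was 0.444 and Spearman's rho 0.416, given as a description across genes, and without that library 0.487 and 0.484 over 12521 genes.

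The difference of the SB431542 effect between cut and uncut tails was tested directly in 1 fit of all 12 libraries. Of 13978 genes none was called (0%) by edgeR's quasi-likelihood test, and 618 (4.42%) had an unadjusted p under 0.05, while DESeq2 called 2 and a fit with no count filter 55. Values that differ between cut and uncut tails therefore stand without a called difference. hpcal4 (ENSDARG00000070491) had log2 fold changes of -1.57 ± 0.24 (SE) in cut tails and 0.13 ± 0.35 (SE) in uncut tails, where its groups overlapped, a difference of -1.70 ± 0.44 (SE) (unadjusted p = 0.00104, adjusted p = 0.951). f13a1b had -1.28 ± 0.25 (SE) in cut and 0.59 ± 0.37 (SE) in uncut tails, where its groups were apart in the other direction, a difference of -1.85 ± 0.44 (SE) (unadjusted p = 0.000477, adjusted p = 0.951). PCOLCE2 had -1.91 ± 0.25 (SE) in cut and -0.29 ± 0.32 (SE) in uncut tails, where its groups overlapped, a difference of -1.62 ± 0.43 (SE) (unadjusted p = 0.0014, adjusted p = 0.951). Without uncut SB431542 replicate 4 these differences were -1.72 for hpcal4, -1.98 for f13a1b and -1.22 for PCOLCE2, none called. Other genes had differences of the opposite sign, among them ppp2r5ca and DYRK1B, chosen after their values were seen. Their differences were 2.52 ± 0.61 (SE) and 1.70 ± 0.44 (SE) (unadjusted p = 0.000611 and 0.00116, adjusted p = 0.951 for both).

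Of the largest increases, soul5, EEF2K and lonrf1 had positive values in uncut tails as well, none of them called there. EEF2K had a log2 fold change of 3.04 ± 0.73 (SE) in uncut tails against 2.51 ± 0.47 (SE) in cut tails, with 53.7, 17 and 115 CPM in SB431542 uncut libraries and 10.6, 2.86 and 8.67 CPM in DMSO uncut libraries, and without uncut SB431542 replicate 4, its highest library, 2.28 ± 0.71 (SE). lonrf1 had 2.30 ± 0.57 (SE) in uncut tails against 2.24 ± 0.23 (SE) in cut tails, and 1.49 ± 0.38 (SE) without uncut SB431542 replicate 2. soul5 had 2.95 ± 1.2 (SE) in uncut tails against 3.33 ± 0.27 (SE) in cut tails, a value that rests on uncut SB431542 replicate 2, since without it the log2 fold change was 0.64 ± 0.44 (SE). Without that library the difference between cut and uncut tails in soul5 was 2.71 ± 0.49 (SE) (unadjusted p = 2.61e-05, adjusted p = 0.378). Without uncut SB431542 replicate 4 the uncut values were 2.55 for lonrf1 and 3.47 for soul5. The matrix gene THBS3 had a log2 fold change of -1.52 ± 0.30 (SE) in uncut tails, with 8.73, 10.4 and 5.34 CPM with SB431542 against 26.2, 25.4 and 18.5 CPM with DMSO, and -1.27 without uncut SB431542 replicate 4.

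**Figure D5:**
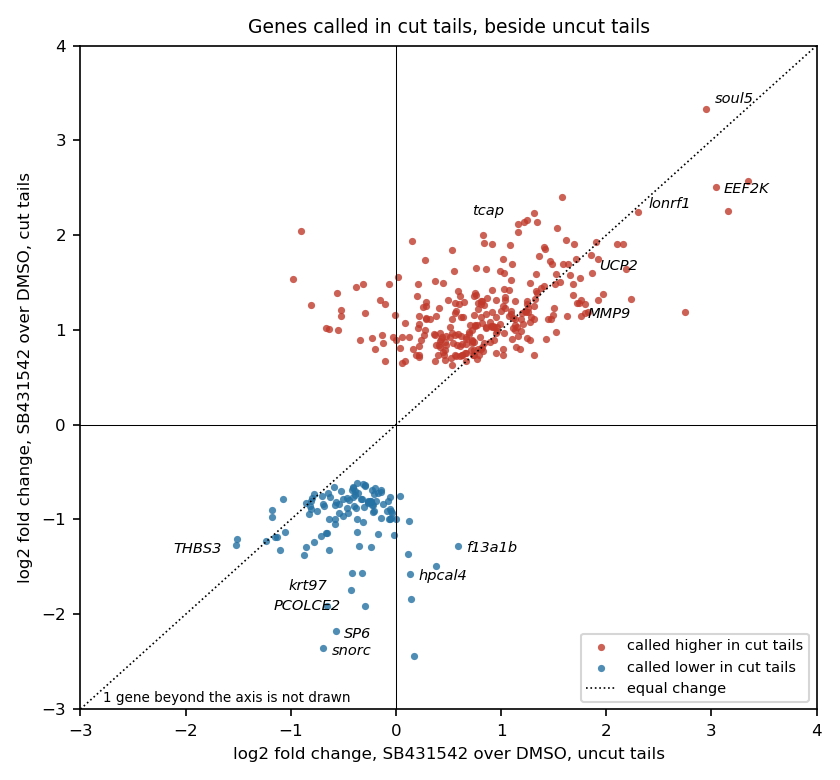
Genes called in cut tails that were also tested in uncut tails, with the log2 fold change of SB431542 over DMSO in uncut tails on the horizontal axis and in cut tails on the vertical axis, and a dotted line where both are equal. Most higher genes (red) lie to the right of 0, while most lower genes (blue) lie between -1 and 0 on the horizontal axis, and 1 gene beyond the axis is not drawn.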

How the data were processed

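Messenger RNA of pooled larval zebrafish tails was read in 12 libraries. The authors deposited estimated counts for 30258 Ensembl genes, not normalized, with fractions in 23.1% to 26.7% of the nonzero values of each library. A second deposited table holds a normalized signal, the counts divided by 1 factor per library. Per the submitters' processing notes reads were placed on GRCz11. Which aligner and counter made the table is not given in the sources used here. Shared reads make values of near-identical genes less certain. Multiplying the normalized table by its factor gave whole reads for 100% of values, within 1e-04, equal to the rounded counts in 100%, so that the test on recovered reads called the same 414 genes.

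Estimated counts were rounded and tested in R 4.3.3 by edgeR 4.0.16 (quasi-likelihood F test), with TMM scaling, filterByExpr and robust dispersion, two-sided, adjusted by Benjamini-Hochberg over all genes tested and called under 0.05. The cut and uncut comparisons were each fitted on their own 6 libraries, and the difference between them on all 12. CPM used TMM factors over the 12 libraries. The tests were also run on simulated counts, with the same spread for every gene and no library set apart. Such counts cannot show how far the calls here rest on single libraries. Symbols came from a table that matched 23598 of 30258 IDs (77.99%), many in human style. Of these, 3440 IDs share a symbol with another ID, and a value belongs to the described ID alone. FST, LDLRAD4, POSTN, PCOLCE2, SERPINH1, THBS3, COL2A1, NID1 and RRM2 have 2 IDs each, and RHCG has 3. FKBP10, JPH1, GADD45B, SLC7A3, APOD, ACADSB and COX7A2 have 2 as well. No further ID of these symbols was called. CRTAC1 also has 2 IDs, of which ENSDARG00000059826 alone is described. IDs are printed for genes described in full, and no genome was used here.

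Named are, first, the 15 genes most raised and the 15 most lowered of those called, if they averaged 5 CPM or more, did not overlap between groups and had a proper symbol. Added to these are up to 4 called members per list, those of lowest adjusted p, the 10 genes of lowest adjusted p in all, and a panel of TGF-β, protease and cytochrome P450 genes. A further class, genes with a called difference between cut and uncut tails, is empty. Lists are described by counts and medians, with no set test. The libraries, lists and genes were chosen with earlier results of these data known. A planned search of promoters was not made, since promoter sequences were not used here. Alternatives were 2 other scalings (RLE, upper quartile), limma 3.58.1 (voom and trend), DESeq2 1.42.0, no or a stricter count filter, a fit of all 12 libraries, the replicate number as a block, and each library left out in turn. The test on recovered reads, the list counts with a library left out, the fits of 11 libraries and the values of named genes without uncut SB431542 replicate 2 or 4 were added after the data were seen.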

Additional observations from a re-analysis of the deposited data

How the results depend on the processing

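In cut tails, RLE scaling, upper-quartile scaling, limma-voom, the stricter filter and limma-trend with either pseudocount kept both counts of calls within 1.5 times of 292 higher and 122 lower. Settings that moved a count further were DESeq2 (448 higher and 245 lower), no count filter (617 and 367), the replicate block (422 and 207, of which 311 were among the 414) and the fit of all 12 libraries (5 and 7). Added after the data were seen, fits of 11 libraries called 5 and 7 without uncut DMSO replicate 1, 5 and 10 without 2, 6 and 8 without 4, 55 and 14 without uncut SB431542 replicate 2, 24 and 13 without 3, and 206 and 107 without 4. Leaving out 1 cut library gave 47 to 367 higher and 15 to 221 lower. In uncut tails, against 2 and 2, DESeq2 called 86 higher and 13 lower, no filter 107 and 19, the block 76 and 22, the fit of all 12 libraries 7 and 1, limma-voom 1 higher and limma-trend with a pseudocount of 0.1 1 and 0, and leaving out 1 library gave 0 to 6 higher and 0 to 5 lower. For the difference between cut and uncut tails, DESeq2 called 2, no filter 55, limma-trend with a pseudocount of 0.1 1, and each leave-out 0. No named gene's call was reversed. Of the 102 named genes' values in leave-one-out fits, 413 kept their side of the threshold, 198 lost it and 1 gained it, and under the other settings 1209 kept, 518 lost and 2 gained it. The 1209 include 102 from the recovered reads, an outcome fixed in advance since those reads equal the rounded counts. Most of the 518 come from the related fits of 11 and 12 libraries, so these totals do not weigh each setting alike. The cause of these shifts was not tested. The cut groups share only replicate numbers 3 and 4, and the labels do not say what a number marks, so the numbers were not taken to pair the samples. Deviations from the group means correlate across genes at 0.134 and 0.191 for these pairs, above the other 7 pairs (-0.153 to 0.105). The replicate block ended 15 named calls, those of ACADSB, ATF3, DDIT3, DUSP1, FKBP10, GADD45B, LDLRAD4, MCM10, SLC7A3, c4b, nfkbiaa, pmela, rbp7a, srpk1b and ucp3, at adjusted p between 0.0503 and 0.212. Depth limits what can be said of genes under about 1 CPM, and 3 pools per group set the precision throughout.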

Other observations

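3 genes had 0 counts in every SB431542 cut library and at least 10 counts in every DMSO cut library, and no gene showed the reverse. They were picked for this pattern, so it carries no test. ENSDARG00000116449, to which the symbol table gives no name, had 10.7, 18.6 and 20.6 CPM in DMSO cut tails, which makes it at least 155-fold lower with SB431542 against a floor of 3 counts over the group, or 0.106 CPM. In uncut tails it had 0, 25.3 and 0 CPM with SB431542 and 29.4, 38.3 and 37.4 CPM with DMSO, so it had no count in 5 of 6 SB431542 libraries and was counted in 6 of 6 DMSO libraries. si:dkey-10b15.8 had 5.68, 5.42 and 5.03 CPM in DMSO cut tails (at least 50.9-fold lower with SB431542), was at 0 in all 3 uncut SB431542 libraries and had 0.797, 0 and 7.03 CPM in uncut DMSO tails. ENSDARG00000112774 had 2.03, 4.19 and 4.11 CPM in DMSO cut tails (at least 31.9-fold lower) and in uncut tails was above 0 in 1 DMSO library alone, at 3.71 CPM.

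Outside the lists, further members of gene families were called in cut tails, chosen here after their values were seen. Binding proteins of insulin-like growth factors were higher, with igfbp1b at 2.35 ± 0.44 (SE), IGFBP3 at 1.75 ± 0.37 (SE) and IGFBP5 (ENSDARG00000025348) at 0.92 ± 0.18 (SE) in log2 fold change. Subunits of the translation initiation factor eIF3 were split, with EIF3B (ENSDARG00000059654) and EIF3M at -0.64 ± 0.17 (SE) and -0.63 ± 0.17 (SE) and EIF3J (ENSDARG00000053370) at 0.89 ± 0.17 (SE). The aminoacyl-tRNA synthetase genes TARS1 and NARS1 were lower, at -0.82 ± 0.18 (SE) and -0.82 ± 0.16 (SE). The transcription factor genes SOX4 (ENSDARG00000098834), CBFB, HOXD9 and en1b, all known from development, were lower as well, at -0.98 ± 0.20 (SE), -0.86 ± 0.18 (SE), -0.66 ± 0.17 (SE) and -0.70 ± 0.17 (SE). Of these 12 calls, that of igfbp1b alone held in all 6 leave-one-out fits. Other transcription factor genes known from development were called higher, among them ved at 1.11 ± 0.24 (SE) and MYT1 at 1.01 ± 0.23 (SE). Leave-one-out fits of ved and MYT1 are not given here.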
